A study of Lactuca sativa with 6 samples.

Results

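The clusters described here are those whose level in all 4 libraries of extract-treated lettuce lay beyond both libraries of untreated lettuce, in either direction. They were selected on the measured levels by a fixed rule. The level of a cluster was its CPM, the count divided by the total count of its library and multiplied by 1000000. Clusters with a mean of at least 1 CPM over the 6 libraries were ranked, without the 32 clusters of the study's tables of phytohormone genes and of PCR assays. The gap of a cluster was the log2 ratio between the treated library nearest to the controls and the control library nearest to the treated ones, with 0.5 CPM added to each level. The 150 clusters with the largest gaps above the controls and the 150 with the largest gaps below them were taken, which makes 300 members of 22892 ranked clusters and 39253 clusters in all. No gap can be negative in such a list, so the members' differences from the controls are a description, and no fold change, p or count of calls against the controls is read as a test of them.

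Leaves of *Lactuca sativa* seedlings were compared under 3 conditions, all 4 days after treatment and with 2 RNA libraries each. Untreated seedlings (*Ls*CK) received Hoagland nutrient solution alone, whereas *Ls*Cv seedlings received once, in that solution, an extract of the green microalga *Chlorella vulgaris* and *Ls*Sq seedlings an extract of the green microalga *Scenedesmus quadricauda*, each at 1 mg of organic carbon per litre. All seedlings were bought from a nursery and grown in boxes on pumice, an inert substrate, and the controls carried no extract of any kind. The labels do not say how many seedlings or boxes went into a library, so the spread between the 2 libraries of a group may be in part technical.

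Plant biostimulants such as microalgal extracts hold mixtures of amino acids, sugars, hormone-like compounds and other metabolites that plants can take up through roots or leaves. Plant cells perceive molecules of microbial origin through receptors at the cell surface and resistance proteins inside the cell, and transcription factors pass the signal on to genes for transporters and for enzymes of primary and specialised metabolism. The members are ordered below by such roles.

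The counts were expected counts, estimated for clusters of transcripts that the authors assembled from the reads themselves, and not from a genome. Totals ran from 26408716 to 35184764 counts per library, at which 3 counts correspond to 0.0853 to 0.114 CPM. The deposited table carries no names. The study's supplementary list of DEGs common to both extracts, of which 1214 clusters were held, described 30 of the 150 higher members and 15 of the 150 lower ones, and a protein name other than uncharacterized or hypothetical was found for 19 and 11. That list was itself chosen by the study on these samples, so that the described members are not independent evidence of any direction, and the remaining 255 members have no description here. A check of the leaf identity of the samples by marker genes was therefore not made. One control stood apart: 558 clusters that the list describes by an animal protein summed to 986 CPM in *Ls*CK replicate 2 and to between 1.47 and 1.84 CPM in the other 5 libraries. The list holds only clusters that the study found shifted from *Ls*CK in the same direction by both extracts. Low sums in the treated libraries are thus in part fixed by the list, and do not show those libraries to be free of animal RNA. None of these 558 clusters is a member, but the rule measures from the nearer control and could hardly have taken them. The 255 members without a description could not be checked in this way.

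Most gaps were small. Of the ranked clusters, 666 (2.91%) had all 4 treated libraries above both controls and 1354 (5.91%) had all 4 below, and the members are the upper end of these. Among the higher members the gap ran from 2.89 to 0.31 on the log2 scale, with a median of 0.42 that corresponds to a ratio of 1.34, and 10 of 150 exceeded 1. Among the lower members it ran from 3.71 to 0.42, with a median of 0.58 or a ratio of 1.49, and 15 of 150 exceeded 1. The mean of the treated libraries was a median 1.99-fold above that of the controls in the higher list and 2.35-fold below it in the lower list, and the means were at least 4-fold apart for 6 and 13 members. In bulk leaves, fewer cells of a type and less RNA per cell cannot be told apart.

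**Figure D1:**
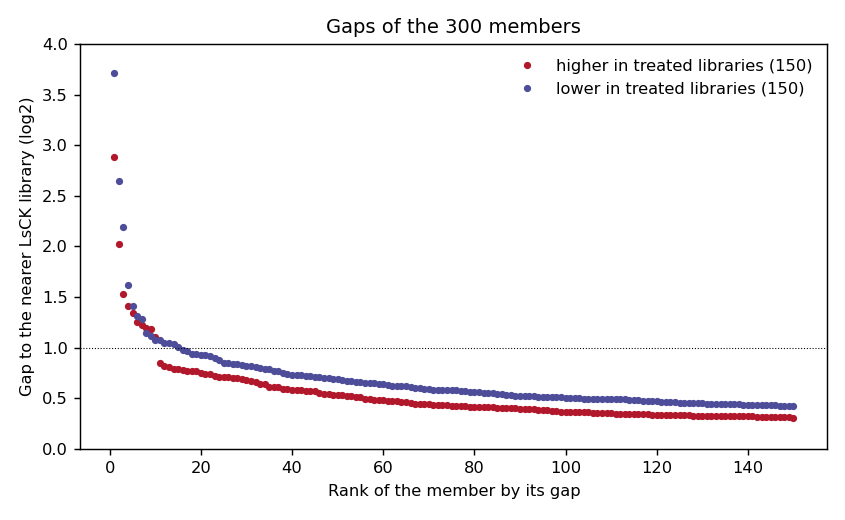
The gap of each member on the log2 scale (vertical axis) against its rank within its list (horizontal axis), with a dotted line at 1. Both lists fall steeply over the first ranks and then flatten, to 0.31 in the higher list and 0.42 in the lower one.

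The limit of 150 fell where neighbouring clusters hardly differed. The last higher member was Cluster-15809.7908, with 16.6 and 13.8 CPM in the *Ls*CK libraries, 21.6 and 26.5 CPM in *Ls*Cv, and 21.6 and 20.6 CPM in *Ls*Sq, and a gap of 0.309. The first cluster left out, Cluster-15372.0, had a gap of 0.307 and 1.85 and 2.16 CPM in the *Ls*CK libraries, 4.41 and 4.88 CPM in *Ls*Cv, and 2.79 and 4.21 CPM in *Ls*Sq. These 2 clusters differ in level and hardly in gap. At the end of the lower list, Cluster-10155.1 had a gap of 0.4181 and 2.07 and 2.12 CPM in the *Ls*CK libraries, 0.586 and 0.344 CPM in *Ls*Cv, and 0.986 and 1.43 CPM in *Ls*Sq. Cluster-12970.0, with 0.4178 and 4.29 and 4.17 CPM in the *Ls*CK libraries, 1.202 and 1.41 CPM in *Ls*Cv, and 2.99 and 2.96 CPM in *Ls*Sq, was just outside. The members at the end of either list are thus not set apart from the clusters that follow them.

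The largest gap above the controls belonged to Cluster-15809.13887, an MLO-like protein 6. MLO proteins are membrane proteins of plants, and some of them are needed by powdery mildew fungi to enter epidermal cells. Its levels were 3.07 and 0.379 CPM without extract against 25.9 and 26.2 CPM with *C. vulgaris* extract and 25.9 and 35.2 CPM with *S. quadricauda* extract. All treated libraries lay within a narrow band far above the controls, and the controls themselves differed, replicate 2 being the lower. The log2 fold change of both extracts against *Ls*CK in the edgeR fit, given here as a description only, was 4.06 ± 0.84 (SE). It was 6.34 without *Ls*CK replicate 1 and 3.22 without *Ls*CK replicate 2.

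The reference gene that matches this cluster, LOC111901583, has among the members a close neighbour in the gene order of the RefSeq annotation. LOC111895237, 2 protein-coding genes away, matches Cluster-4411.0, an uncharacterized protein, with 17.0 and 0 CPM in the *Ls*CK libraries, 40.0 and 41.9 CPM in *Ls*Cv, and 37.1 and 38.6 CPM in *Ls*Sq. Replicate 1 of the control was well below every treated library, and replicate 2 had no count. Among the members whose description gave a reference gene, 37 of 300, this was the only pair within 10 genes of each other, and it was looked for after the values had been seen.

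A single reference gene was matched by 2 members, that of a horcolin-like protein, LOC111890979. Horcolin is a mannose-binding lectin of the jacalin family from barley. Cluster-15809.7313 had 22.3 and 1.59 CPM in the *Ls*CK libraries, 58.6 and 51.4 CPM in *Ls*Cv, and 68.3 and 56.5 CPM in *Ls*Sq. Cluster-15809.8763 was more abundant, with 72.5 and 7.29 CPM in the *Ls*CK libraries, 126 and 168 CPM in *Ls*Cv, and 127 and 121 CPM in *Ls*Sq. In both, *Ls*CK replicate 2 was far below replicate 1, and the gap of the second cluster, 0.74, is set by replicate 1 alone. Both clusters held fractional counts, whether reads were divided between them was not tested, and they cannot be read as 2 independent genes.

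Among proteins of signal perception, 2 higher members were described by a receptor kinase. Cluster-15809.10547, a leucine-rich repeat receptor protein kinase MSL1-like, had 11.2 and 2.50 CPM in *Ls*CK, 19.3 and 21.4 CPM in *Ls*Cv and 15.0 and 22.3 CPM in *Ls*Sq. Cluster-15809.11403 had 112 and 49.1 CPM in *Ls*CK, 177 and 148 CPM in *Ls*Cv and 202 and 171 CPM in *Ls*Sq, and its descriptions disagree, since the best protein match is an F-box protein, SKIP3-like, and the best nucleotide match the receptor-like kinase HERK 1, which in *Arabidopsis* belongs to a family that senses the state of the cell wall. In both clusters replicate 2 of the control was well below replicate 1. Inside the cell, a TMV resistance protein N-like, related to the tobacco protein that recognises tobacco mosaic virus, was measured in Cluster-15809.11213 at low levels, with 1.45 and 0.833 CPM in *Ls*CK, 3.24 and 2.06 CPM in *Ls*Cv and 4.49 and 3.03 CPM in *Ls*Sq.

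By the keyword list of transcription factors, 3 of the 30 higher members on the list of common DEGs and none of the 15 lower ones were counted. The same keywords took in 19 of the 1214 clusters held of that list, and the members without a description could not be searched. Cluster-15809.6665, MYB10-like, had the second largest gap. MYB10 of apple and strawberry activates the genes of anthocyanin synthesis. Its levels were 1.73 and 0.909 CPM without extract against 8.57 and 18.1 CPM with *C. vulgaris* extract and 21.0 and 20.9 CPM with *S. quadricauda* extract, all treated libraries being clear of both controls although *Ls*Cv replicate 1 was well below the other treated libraries. The log2 fold change of both extracts against *Ls*CK was 3.69 ± 0.47 (SE), and each extract by itself gave 3.42 with *C. vulgaris* extract and 3.96 with *S. quadricauda* extract, both against the same controls.

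The other regulators had smaller gaps. Cluster-12490.0, GATA transcription factor 1-like, of a family of zinc finger proteins that bind the sequence it is named after, had 5.66 and 2.99 CPM in the *Ls*CK libraries, 8.14 and 12.3 CPM in *Ls*Cv, and 10.5 and 9.43 CPM in *Ls*Sq. A homeobox-leucine zipper protein, ATHB-40, was found in Cluster-15809.1411 with 7.16 and 2.27 CPM in the *Ls*CK libraries, 12.1 and 11.7 CPM in *Ls*Cv, and 10.3 and 9.78 CPM in *Ls*Sq. For both, the nearer control was replicate 1, and the gaps were 0.49 and 0.42.

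Enzymes of specialised metabolism were represented by 3 higher members and 1 lower one. Of the 1214 clusters held of the list of common DEGs, 21 fell under these keywords. Cluster-15809.3563, cytochrome P450 71A8-like, of a large family of oxidising enzymes, had 2.41 and 1.91 CPM in the *Ls*CK libraries, 4.52 and 5.01 CPM in *Ls*Cv, and 6.53 and 5.66 CPM in *Ls*Sq. Cluster-10880.0, UDP-glycosyltransferase 89B2-like, which would attach sugars to small molecules, had 2.50 and 2.69 CPM in the *Ls*CK libraries, 3.58 and 11.1 CPM in *Ls*Cv, and 6.70 and 8.60 CPM in *Ls*Sq. Its *Ls*Cv libraries were far apart, and the low one set the gap of 0.35. Cluster-15809.1332, BAHD acyltransferase DCR-like, of which the *Arabidopsis* namesake is needed for the cutin layer, had 23.6 and 1.06 CPM in the *Ls*CK libraries, 29.4 and 85.2 CPM in *Ls*Cv, and 82.8 and 37.8 CPM in *Ls*Sq. Here the controls were far apart, and the lowest treated library was only slightly above the higher control.

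A transporter, a phosphatase and an inhibitor protein were also described among the higher members. Cluster-15809.10521, ammonium transporter 1 member 1-like, which takes up ammonium with high affinity in other plants, was measured at 61.0 and 23.9 CPM in the *Ls*CK libraries, 100.0 and 87.9 CPM in *Ls*Cv, and 83.0 and 81.7 CPM in *Ls*Sq. Cluster-15809.2501, a purple acid phosphatase-like protein, of enzymes that release phosphate from organic esters, had 12.7 and 8.82 CPM in the *Ls*CK libraries, 26.8 and 20.4 CPM in *Ls*Cv, and 44.6 and 30.1 CPM in *Ls*Sq. All treated libraries were above both controls in either cluster, and the *Ls*Sq libraries were the higher ones for the phosphatase. Cluster-15809.13811 matched the cell wall / vacuolar inhibitor of fructosidase 2, a kind of protein that blocks sucrose-cleaving invertases, and its levels were 25.1 and 17.6 CPM in the *Ls*CK libraries, 48.7 and 34.0 CPM in *Ls*Cv, and 74.3 and 49.3 CPM in *Ls*Sq.

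Chlorophyllase-2, chloroplastic-like, an enzyme that cuts the phytol tail from chlorophyll, was described for Cluster-15809.933, which had 2.90 and 1.10 CPM in *Ls*CK, 5.18 and 7.63 CPM in *Ls*Cv and 10.5 and 6.89 CPM in *Ls*Sq. The most abundant described higher member was Cluster-15809.7209, delta(12) fatty acid desaturase DES8.11-like, of the enzymes that desaturate fatty acids in membranes. It was measured at 311 and 143 CPM in the *Ls*CK libraries, 399 and 650.1 CPM in *Ls*Cv, and 473 and 584 CPM in *Ls*Sq, and *Ls*CK replicate 2 was the lowest library. An aspartic proteinase nepenthesin-1-like, Cluster-15809.15279, was near the end of the list, with 8.33 and 4.81 CPM in *Ls*CK, 16.7 and 13.9 CPM in *Ls*Cv and 10.5 and 18.9 CPM in *Ls*Sq.

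**Figure D2:**
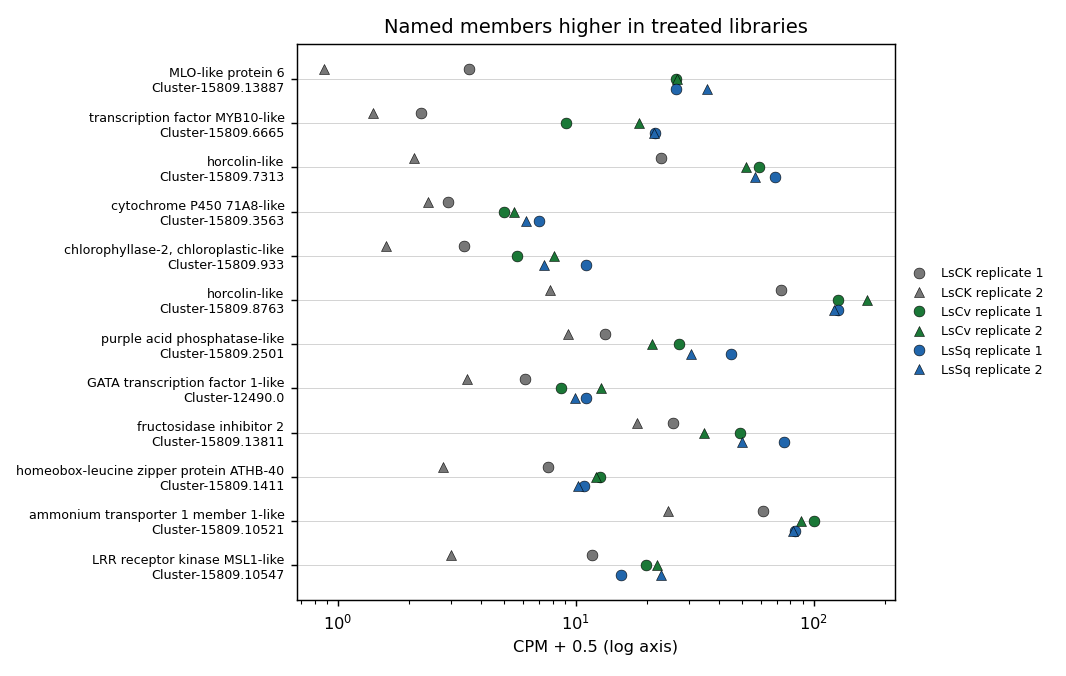
Levels of the 12 described members with the largest gaps above the controls, as CPM + 0.5 on a log axis, with 1 point per library (grey *Ls*CK, green *Ls*Cv, blue *Ls*Sq, circles replicate 1, triangles replicate 2). In each row every coloured point lies to the right of both grey points, and the grey triangle lies to the left of the grey circle.

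Clusters with matches to organelle or other genomic sequence made up 5 of the 30 higher members on the list of common DEGs and none of the lower ones. Of the 1214 clusters held of that list, 10 had such matches. Cluster-15809.5278, matched to an unannotated genomic sequence of cotton, had 9.32 and 7.87 CPM in the *Ls*CK libraries, 33.0 and 27.8 CPM in *Ls*Cv, and 36.1 and 30.9 CPM in *Ls*Sq. Cluster-15809.5281, matched to the chloroplast genome of an orchid, had 8.90 and 8.07 CPM in the *Ls*CK libraries, 36.6 and 23.3 CPM in *Ls*Cv, and 30.6 and 27.9 CPM in *Ls*Sq. In this pair the 2 controls were close to each other and all treated libraries well above them, and the log2 fold changes were 1.98 ± 0.29 (SE) and 1.90 ± 0.35 (SE). Cluster-15809.4210, whose best nucleotide match is the chloroplast genome of a red alga, gave 3.98 and 3.19 CPM in *Ls*CK, 13.4 and 12.5 CPM in *Ls*Cv and 10.2 and 13.0 CPM in *Ls*Sq. Cluster-15809.5277, matched to a genomic contig of *Albugo laibachii*, which is not a plant, gave 1.22 and 0.985 CPM in *Ls*CK, 5.30 and 4.09 CPM in *Ls*Cv and 4.39 and 5.05 CPM in *Ls*Sq. Such matches name no gene.

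Several of these members have neighbouring numbers within the same super-cluster, the set of transcripts that share reads and that Corset then splits into numbered clusters. This run of numbers was looked at after the values had been seen and because it held members, so its number of members is not read as an excess. Of the 20 clusters numbered 5270 to 5289, 7 were higher members, 1 was a lower member and 12 were not members, 3 of them below the level ranked, against 150 members of either list among all ranked clusters (0.655%). The undescribed Cluster-15809.5282 had 14.9 and 19.2 CPM in the *Ls*CK libraries, 42.2 and 32.5 CPM in *Ls*Cv, and 34.1 and 37.2 CPM in *Ls*Sq. The lower member was Cluster-15809.5284, with 39.3 and 41.2 CPM in the *Ls*CK libraries, 26.7 and 23.1 CPM in *Ls*Cv, and 27.5 and 18.2 CPM in *Ls*Sq. The cluster numbered between them, Cluster-15809.5283, was not a member, at 145 and 253 CPM in the *Ls*CK libraries, 78.4 and 72.0 CPM in *Ls*Cv, and 126 and 115 CPM in *Ls*Sq, and its treated libraries were below both controls as well. Whether reads were divided differently among these clusters in different libraries was not tested.

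Of the 12 functional lists, those of hormone response and of cytoskeleton and vesicle traffic had no member in either direction. The rule had left out the study's phytohormone clusters, so the first of these was not free to have all of them. Cell wall proteins, membrane transporters and intracellular resistance proteins had 1 member each way, and receptor proteins had 2 higher and 1 lower. Proteases, protease inhibitors and lectins had none lower and 3 higher members, 2 of them the horcolin-like clusters that match a single reference gene. Transposon and virus related clusters had 2 lower and none higher. These counts are out of 45 members among the 1214 clusters held of the list of common DEGs. Of those 1214, 11 fell under hormone response, 17 under cytoskeleton and vesicle traffic, and 19 under cell wall proteins. Membrane transporters had 45, intracellular resistance proteins 15 and receptor proteins 23. Proteases, protease inhibitors and lectins had 21, and transposon and virus related clusters 7. Each count thus rests on few clusters, and none is read as a difference between functions.

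Below the controls, the 3 largest gaps belonged to clusters with no description that had 3 counts or fewer in every treated library. Cluster-12282.0 had 213 and 244 counts in the *Ls*CK libraries and no count in any treated library, which is at least 58.0-fold lower against a floor of 3 counts per library. Cluster-5266.0 had 108 and 81 counts in *Ls*CK, 2 counts in *Ls*Sq replicate 1 and none in the other treated libraries, at least 29.4-fold lower. Cluster-15809.9163 had 68 and 146 counts in *Ls*CK, 1 count in *Ls*Cv replicate 1 and none elsewhere, at least 18.5-fold lower. These members were present in both controls at low levels and close to absent from all 4 treated libraries. Their means over the 6 libraries were 2.55, 1.03 and 1.25 CPM, so they passed the limit of 1 CPM only through the controls. The bounds are a description of chosen clusters and not a test.

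The described member with the largest gap below the controls was Cluster-10001.0, the zinc finger BED domain-containing protein RICESLEEPER 2, of a family derived from hAT transposases that rice needs for normal development. It had 13.4 and 15.2 CPM in the *Ls*CK libraries, 2.47 and 4.78 CPM in *Ls*Cv, and 3.81 and 5.88 CPM in *Ls*Sq. Its controls were close to each other and well above every treated library, and the log2 fold change was -1.70 ± 0.33 (SE). The second cluster related to mobile elements was Cluster-20662.0, with a Gag polypeptide of copia type, at 8.78 and 19.9 CPM in the *Ls*CK libraries, 4.10 and 5.98 CPM in *Ls*Cv, and 4.73 and 5.95 CPM in *Ls*Sq.

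The next described lower members are named one by one, and no functional list groups them. Cluster-15809.12119, root phototropism protein 3-like, which in *Arabidopsis* links the blue light receptor phototropin to bending of the seedling, had 13.2 and 27.2 CPM in the *Ls*CK libraries, 5.43 and 4.02 CPM in *Ls*Cv, and 6.32 and 6.16 CPM in *Ls*Sq. Cluster-6136.0, protein LIGHT-DEPENDENT SHORT HYPOCOTYLS 4-like, of a family that shapes organ boundaries in *Arabidopsis*, had 8.47 and 13.3 CPM in the *Ls*CK libraries, 1.88 and 4.30 CPM in *Ls*Cv, and 4.25 and 4.84 CPM in *Ls*Sq. In both, replicate 2 was the higher control and the gap is measured from replicate 1. Cluster-15809.6941, FT-interacting protein 1-like, which in *Arabidopsis* helps to move the flowering signal FT, had 6.74 and 14.8 CPM in the *Ls*CK libraries, 3.55 and 3.99 CPM in *Ls*Cv, and 4.69 and 3.86 CPM in *Ls*Sq.

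A single lower member was counted in the list of intracellular resistance proteins. It was Cluster-15809.9404, disease resistance protein RML1A-like, with 3.47 and 15.3 CPM without extract against 0.956 and 1.17 CPM with *C. vulgaris* extract and 1.09 and 1.60 CPM with *S. quadricauda* extract. The treated libraries were close to each other, while the controls were far apart, replicate 2 being the higher, and the log2 fold change was -2.85 ± 0.57 (SE). It was -3.54 without *Ls*CK replicate 1 and -1.52 without *Ls*CK replicate 2. Cluster-6153.0, a restricted TEV movement protein 2-like, which in *Arabidopsis* stops the long-distance spread of a potyvirus, had 3.87 and 9.69 CPM in *Ls*CK, 2.74 and 2.75 CPM in *Ls*Cv and 2.41 and 2.65 CPM in *Ls*Sq. Cluster-17117.0 carries no protein name but its closest curated match is a receptor-like kinase of *Arabidopsis*, and it had 7.59 and 12.1 CPM in *Ls*CK, 3.11 and 3.06 CPM in *Ls*Cv and 4.90 and 3.10 CPM in *Ls*Sq.

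The remaining described lower members were an extensin-like protein, a transporter, an enzyme of lignan synthesis and a protein of unclear role. Cluster-10830.0, pollen-specific leucine-rich repeat extensin-like protein 1, of a family of structural wall proteins, had 2.36 and 4.47 CPM in the *Ls*CK libraries, 0.432 and 0.928 CPM in *Ls*Cv, and 0.952 and 0.766 CPM in *Ls*Sq. Cluster-20023.0, oligopeptide transporter 3-like, which loads iron and copper into the phloem in *Arabidopsis*, had 4.49 and 7.42 CPM in the *Ls*CK libraries, 1.85 and 2.30 CPM in *Ls*Cv, and 2.07 and 1.67 CPM in *Ls*Sq. Neither cluster showed overlap between treated and control libraries, as the rule requires. Cluster-15809.2073, secoisolariciresinol dehydrogenase, had 9.24 and 17.5 CPM in *Ls*CK, 2.81 and 5.78 CPM in *Ls*Cv and 4.73 and 6.33 CPM in *Ls*Sq, and Cluster-15809.5833, organ-specific protein S2-like, had 40.8 and 83.1 CPM in *Ls*CK, 13.2 and 29.3 CPM in *Ls*Cv and 16.3 and 24.8 CPM in *Ls*Sq.

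**Figure D3:**
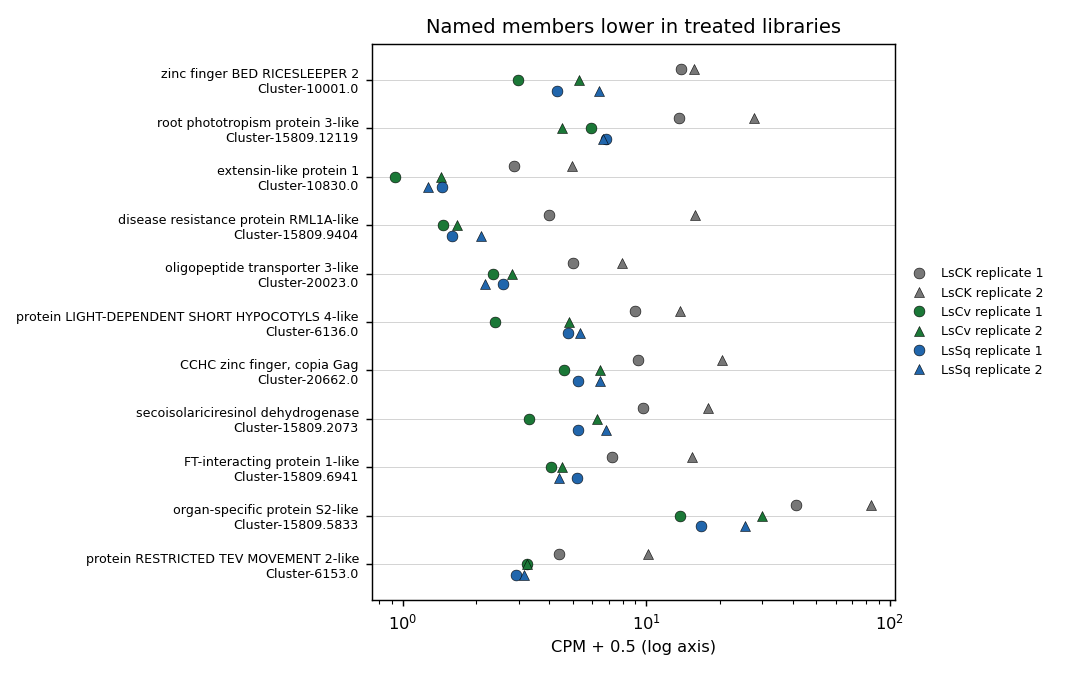
Levels of the 11 described members below the controls, as CPM + 0.5 on a log axis, with 1 point per library (grey *Ls*CK, green *Ls*Cv, blue *Ls*Sq, circles replicate 1, triangles replicate 2). In each row every coloured point lies to the left of both grey points, and the grey triangle lies to the right of the grey circle.

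The most abundant members of the 2 lists have no description. In the higher list it was Cluster-15809.8410, with 449.9 and 90.9 CPM in the *Ls*CK libraries, 866 and 855 CPM in *Ls*Cv, and 613 and 564 CPM in *Ls*Sq. In the lower list Cluster-15809.8464 had 1769 and 2494 CPM in the *Ls*CK libraries, 100.0 and 327 CPM in *Ls*Cv, and 854 and 1209.7 CPM in *Ls*Sq. The treated libraries of the first were close within each extract, and those of the second differed widely, the *Ls*Cv libraries being the lower ones. Summed over the 150 higher members, the level was 3337 and 2246 CPM in *Ls*CK, 6141 and 6121 CPM in *Ls*Cv, and 5677 and 5674 CPM in *Ls*Sq. The same sum over the lower members was 4887 and 6035 CPM in *Ls*CK, 1368 and 1759.9 CPM in *Ls*Cv, and 2436 and 2779.5 CPM in *Ls*Sq. Cluster-15809.8464 alone gave 1769 and 2494 CPM of the 2 control sums.

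The 2 controls did not count alike. The control nearer to the treated libraries was replicate 1 for 100 of 150 higher members and 101 of 150 lower members, so replicate 2 was in most cases the more extreme one. For a higher member replicate 1 is the nearer control where it is the upper one, and for a lower member where it is the lower one. On a like measure, replicate 1 was above replicate 2 in 66.7% of the higher members, 32.7% of the lower members and 43.6% of all ranked clusters. The named members leaned further, with replicate 1 the nearer control in 18 of 19 described higher members and in all 11 described lower members. The controls were more than 2-fold apart for 20 of 150 members in each list (13.3%), against 23.1% of the ranked clusters, and the rule favours close controls because it measures from the nearer one. The median of the treated mean over the control was 0.88 on the log2 scale against replicate 1 and 1.04 against replicate 2 in the higher list, and -1.05 and -1.27 in the lower list. Replicate 2 is also the library with the animal-described clusters, and the part of that in these differences was not tested.

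Each extract by itself was compared with the same controls, so that both values below share *Ls*CK and are given side by side only. In the higher list the median log2 fold change was 1.25 with *C. vulgaris* extract and 1.08 with *S. quadricauda* extract, and in the lower list -1.38 and -1.24. Over all ranked clusters that were tested the medians were -0.02 and 0.00. In the edgeR fit of 28157 clusters none reached an adjusted p of 0.05 for both extracts against *Ls*CK (0%), and 1330 (4.72%) had an unadjusted p under 0.05. DESeq2 on the same 6 libraries called 180 of 39253 clusters, and 52 of the 300 members are among them. The rule chose the members on this same contrast, so nothing is read from that count. Of the 299 members tested, 253 had an unadjusted p under 0.05, a count that the rule itself produced and from which nothing is read.

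The extracts were compared with each other in the same fit, in which the *Ls*CK libraries took part in the filter, the scaling and the estimate of the spread. The rule does not ask which extract a treated library received, but it takes the treated library nearest to the controls, which favours clusters whose 4 treated libraries are close. The range of the treated libraries was a median 0.62 on the log2 scale in the higher list and 0.78 in the lower list, against 1.00 over all ranked clusters. No member reached an adjusted p of 0.05 in *Ls*Cv versus *Ls*Sq, nor did any of the 28157 clusters tested with edgeR, while 4496 (16%) had an unadjusted p under 0.05. DESeq2 called 1485 of 39253 clusters in this comparison, and 5 of the 300 members are among them. Among the members the unadjusted count was 20 of 299, namely 4 of 149 tested higher members and 16 of 150 lower ones. In a fit of the *Ls*Cv and *Ls*Sq libraries alone it was 16 of 295, against 5802 of the 26867 clusters in that fit (21.6%). The smaller share among the members is what the rule favours and is not read as likeness of the extracts. For 1 cluster at a time, the smallest p of a two-sided exact permutation test between 2 groups of 2 libraries is 0.333.

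Over all tested members, *Ls*Cv had the larger log2 fold change from *Ls*CK in size for 98 of 149 higher members and 75 of 150 lower members, against 56.7% of the ranked clusters. Of the 16 lower members with an unadjusted p under 0.05, 15 were lower in *Ls*Cv than in *Ls*Sq, and of the 4 higher members 3 were higher in *Ls*Cv. Over all tested clusters with such a p, *Ls*Sq was the higher in 2733 and *Ls*Cv in 1763. Cluster-15809.11573 had 63.0 and 93.1 CPM in the *Ls*CK libraries, 4.75 and 4.95 CPM in *Ls*Cv, and 23.6 and 46.0 CPM in *Ls*Sq. Both *Ls*Cv values were far below the lower *Ls*Sq value, and the log2 difference of *Ls*Cv from *Ls*Sq was -2.69 ± 0.41 (SE), with an edgeR adjusted p = 0.229. For Cluster-15809.8464, whose levels are given above, the difference was -2.20 ± 0.55 (SE) with an edgeR adjusted p = 0.232.

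The other 3 clusters with the smallest p had these values. Cluster-9855.0 had 6.68 and 3.60 CPM in the *Ls*CK libraries, 0 and 0.0344 CPM in *Ls*Cv, and 2.28 and 0.731 CPM in *Ls*Sq, and the edgeR adjusted p = 0.229. Cluster-11150.0 had 2.61 and 2.57 CPM in the *Ls*CK libraries, 0.0617 and 0 CPM in *Ls*Cv, and 0.816 and 1.78 CPM in *Ls*Sq, with an edgeR adjusted p = 0.229. In both, the *Ls*Cv libraries were at or near no count while the *Ls*Sq libraries were between them and the controls. Cluster-15809.9806 was the only higher member of the 5, at 17.0 and 19.0 CPM in the *Ls*CK libraries, 49.5 and 54.7 CPM in *Ls*Cv, and 31.7 and 33.6 CPM in *Ls*Sq, with a difference of 0.83 ± 0.25 (SE) and an edgeR adjusted p = 0.239. Its controls were close to each other, and its *Ls*Cv libraries lay above its *Ls*Sq libraries. These 5 were the members that DESeq2 called.

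**Figure D4:**
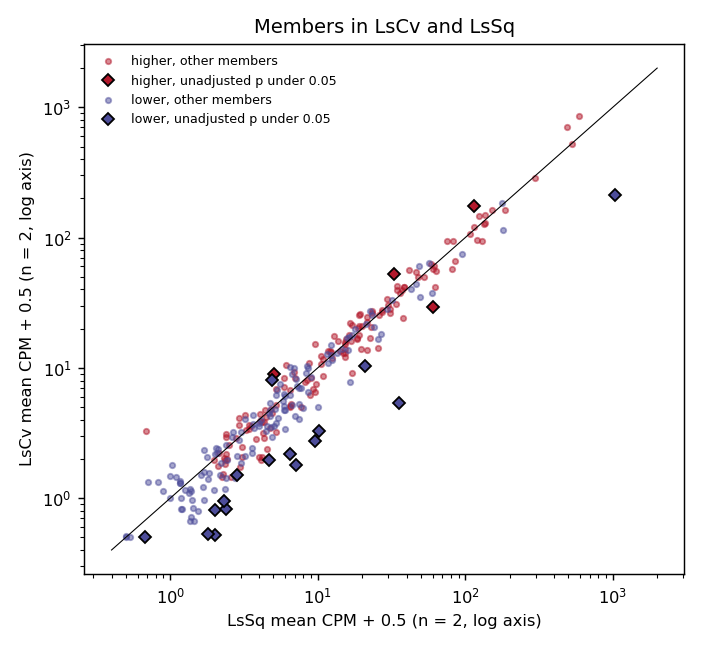
Mean level of each member in *Ls*Cv (vertical axis) against *Ls*Sq (horizontal axis), as CPM + 0.5 on log axes with n = 2 libraries per mean, red for higher and blue for lower members. Diamonds mark the 20 members with an unadjusted p under 0.05 in the comparison of the extracts, of which 15 of the 16 blue ones lie below the line of equal level.

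Counted without a test, the 2 libraries of *Ls*Cv lay fully apart from the 2 of *Ls*Sq in 57 of 150 higher members and 66 of 150 lower members, against 13278 (58%) of all ranked clusters. In the higher list *Ls*Cv was the upper one in 22 of these and *Ls*Sq in 35, and in the lower list in 17 and 49. By CPM without TMM scaling, the level in *Ls*Sq was thus the upper one more often in either list, as it was over all ranked clusters, with 4446 against 8832. The TMM factor was 0.835 and 1.03 for the *Ls*Cv libraries and 1.04 and 1.02 for the *Ls*Sq libraries. These counts were not repeated with that scaling. The median log2 ratio of *Ls*Cv to *Ls*Sq was -0.02 in the higher list, -0.11 in the lower list and -0.17 over all ranked clusters, from CPM without TMM scaling. The median log2 fold changes of the edgeR fit, which uses that scaling and tested clusters only, were 0.15, -0.01 and -0.04. The sign in the higher list thus differs between these measures, and the part of the scaling alone was not tested.

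The spread between the 2 libraries of a treatment is given beside the difference between the extracts, which is one of means and so not on the same footing. The median absolute log2 ratio between the 2 *Ls*Cv libraries was 0.27 in the higher list and 0.35 in the lower list, and between the 2 *Ls*Sq libraries 0.24 and 0.32. Between the extracts' means it was 0.20 and 0.31. Over all ranked clusters the corresponding values were 0.49 within *Ls*Cv, 0.24 within *Ls*Sq and 0.50 between the extracts.

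The members were lower in level than the ranked clusters as a whole. The median of the mean level was 10.9 CPM in the higher list and 5.67 CPM in the lower list, against 15.0 CPM, and since no transcript lengths were used these are not levels per length. In the lower list the rule itself lowers that mean, because 4 of the 6 libraries are treated ones, so its value is a description only. The largest super-cluster, the one most of the named clusters carry in their number, held 102 of the higher members (68.0%) and 55 of the lower ones (36.7%), against 60.2% of the ranked clusters. A count that was not whole in at least 1 library, which arises where RSEM divides reads among transcripts, was found in 70 higher members (46.7%) and 37 lower ones (24.7%), against 45.8%. The lower list thus held fewer clusters of the large super-cluster and fewer with divided reads. All but 1 of the members passed the filter on low counts, the exception, named after its values were seen, being Cluster-586.0, with 0.0284 and 0 CPM in the *Ls*CK libraries, 5.36 and 0.241 CPM in *Ls*Cv, and 0.204 and 0.174 CPM in *Ls*Sq. It was near the floor in 5 of the 6 libraries.

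The membership depended on single libraries, above all on the controls. When *Ls*CK replicate 1 was left out and the rule repeated, 18 of the 150 higher members and 1 of the 150 lower ones were again among the first 150. Without *Ls*CK replicate 2 the counts were 32 and 39. Leaving out a treated library kept between 63 and 108 of the higher members and between 64 and 97 of the lower ones. A member cannot lose its gap when a control is left out, and those no longer among the first 150 were displaced by other clusters or fell below the mean of 1 CPM. Without *Ls*CK replicate 1 all 150 higher members and 138 of the lower ones were still ranked. Only 5 higher members and 1 lower member were among the first 150 whichever library was left out, and 3 and 0 under all 11 changes of the rule. Those that kept a place whichever library was left out included the MLO-like protein 6 (Cluster-15809.13887) and the MYB10-like transcription factor (Cluster-15809.6665). The others were Cluster-15809.5278 with its match to cotton genomic sequence, the horcolin-like Cluster-15809.7313 and the uncharacterized Cluster-4411.0 above the controls, and the undescribed Cluster-12282.0 below them. Their place was kept, but their size could still depend on a control. The log2 fold change of Cluster-15809.7313 was 5.34 without *Ls*CK replicate 1 and 1.41 without replicate 2, and that of Cluster-15809.5278 was 2.16 and 1.80.

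**Figure D5:**
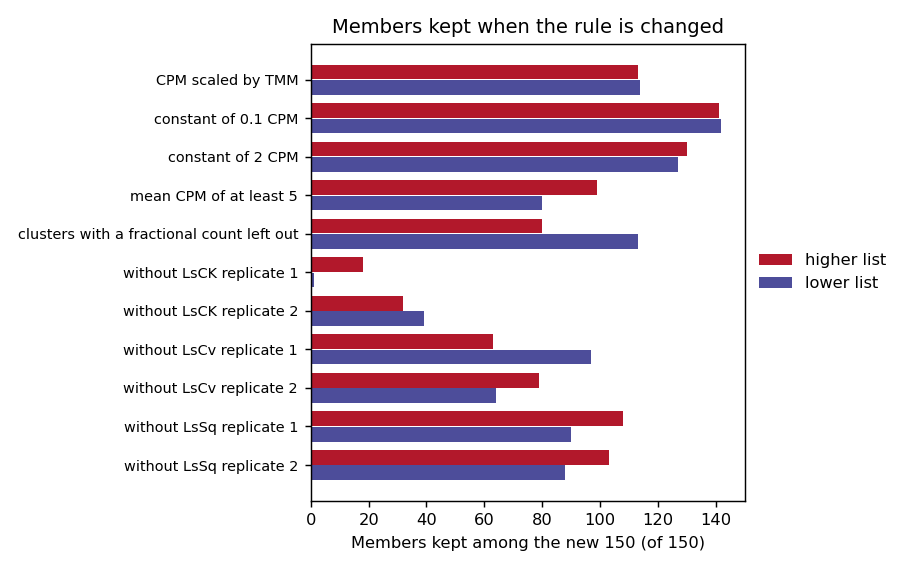
Number of the 150 members of each list (horizontal axis) that are again among the first 150 when 1 choice of the rule is changed or 1 library is left out (vertical axis), red for the higher list and blue for the lower list. The shortest bars are those without *Ls*CK replicate 1, at 18 and 1.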

How the data were processed

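RNA-seq libraries were available for 2 samples each of *Ls*CK, *Ls*Cv and *Ls*Sq, grouped by the labels, and no library was left out. The authors assembled the reads with Trinity, grouped transcripts with Corset, and deposited expected counts from RSEM without normalization, rounded here to whole numbers for the tests. All 6 columns of the table were mapped to samples, and 0 were left unused. CPM were computed from the deposited expected counts and column totals. The members and lists were chosen with earlier results of these data known.

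Clusters were filtered with filterByExpr, scaled by TMM and tested with edgeR 4.0.16 in R 4.3.3 (glmQLFit and glmQLFTest, all 6 libraries in 1 fit, Benjamini-Hochberg adjustment over 28157 clusters, threshold 0.05). Code was tested on simulated data. DESeq2 1.42.0 was an alternative. The libraries' total counts, and 2 libraries per group, limit the precision. Named members were the 3 with the largest gap in each direction, the first 12 described ones (11 were found below the controls), up to 4 per functional list, the 5 with the smallest p between the extracts, those at the limit of the lists and the most abundant ones. Clusters outside this rule are named in the text as chosen after their values had been seen, or serve to complete a pair or a count. Descriptions came from the text columns of the study's supplementary list, and its fold changes and p-values were not used. Reference genes (LOC symbols) given in the descriptions of 37 members were looked up in the RefSeq annotation of lettuce and found for 36 of these members. No sequences were used here. Functional lists were keyword lists applied to the descriptions.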

Additional observations from a re-analysis of the deposited data

How the results depend on the processing

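Under alternatives of the rule, 99 higher and 80 lower members were kept with a mean of at least 5 CPM, and 80 higher members with clusters holding a fractional count left out, because the other members were no longer ranked. The other settings of the rule kept 113 to 142 members per list. Leaving out each library in turn kept 18 to 108 higher members and 1 to 97 lower members. For both extracts against *Ls*CK, edgeR made 0 calls in 6 of its 6 alternatives with all libraries and DESeq2 made 180; leaving out each library gave 0 to 226, the 226 being without *Ls*CK replicate 1. For *Ls*Cv versus *Ls*Sq, edgeR made 0 calls in every alternative, each library left out included, and DESeq2 made 1485. Members with an unadjusted p under 0.05 in that comparison numbered 16 to 25 under the other settings and 10 to 26 with each library left out, the lowest values being without *Ls*Sq replicate 1 (12) and replicate 2 (10). The replicate block left the calls at 0 in both comparisons and gave 22 members with an unadjusted p under 0.05 between the extracts, against 19.4% of all tested clusters. Deviations of libraries that share a number correlated at 0.153 to 0.239 between groups, and no label says that a number marks a batch. Of 585 fold changes of named members under alternatives, all for both extracts against *Ls*CK, 0 reversed. The rule chose the members on this same contrast and left little room for a reversal, so nothing is read from that count. Some passed with DESeq2 the threshold that they miss here, and the cause was not tested. The effect of depth on members near 1 CPM was not tested.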
